A study of Mus musculus with 9 samples.

Results

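The rows of the count table that lie on Wif1, Fcamr and Fam155a were those with lower counts in HVEM-KO than in Vec EL4 tumours at the smallest p-values among placed rows with a mean log2 CPM (counts relative to library size) of at least 1. They are 3 of the 56923 rows of the table, and 3 of the 11521 rows that passed the filter on low counts. All 3 members passed that filter. EL4 cells come from a T-cell lymphoma of the mouse. HVEM, the product of Tnfrsf14, belongs to the TNF receptor family. The genotype labels of the tumours read Vec in 5 and HVEM-KO in 4, and every tumour was of EL4 cells. The labels used here do not state the host strain, the age of the mice, the number of clones behind the knockout or whether 1 animal gave 1 library. P-values therefore measure the spread between these libraries, which may be technical.

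WIF1 is a secreted protein that binds Wnt ligands outside the cell and keeps them from their Frizzled and Lrp5/6 receptors. When Wnt does reach its receptors, beta-catenin is stabilised and acts with the TCF and LEF factors, which are also needed for the development of T cells in the thymus. Fcamr encodes a receptor for the Fc part of IgM and IgA that is known from B cells, macrophages and follicular dendritic cells. Fam155a, also called Nalf1, encodes an auxiliary protein of the sodium leak channel NALCN, studied mostly in neurons.

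The gene names are inferred, because rows of the table did not count the genes they are named for. The member rows were deposited under the identifiers of Tbc1d30 (ENSMUSG00000052302, the row on Wif1), Il24 (ENSMUSG00000026420, the row on Fcamr) and the lincRNA Gm44516 (ENSMUSG00000109124, the row on Fam155a). Their displacement along the chromosome was fitted to the counts of all rows of the chromosome, the member rows included. A scan over the other rows of the same stretch, without the member row, then gave the same best displacement for each. The row on Wif1 lay at a displacement of -164250 bp. The other 1642 rows of its stretch gave a log-likelihood gain of 403.2 there. At the best place more than 2 kb away, within 300 kb on either side, the gain was 258.5. Places farther off were not scanned for these gains, here or for the other members. The scores were also learned from the fitted displacements, which favours them. For the row on Fcamr the displacement was -72250 bp, with a gain of 164.4 from 880 other rows against 88.1 elsewhere. For the row on Fam155a it was 49750 bp, with a gain of 85.7 from 405 other rows against 66.4 elsewhere. The margin was thus 144.7 for Wif1, 76.3 for Fcamr and 19.3 for Fam155a, so the last name rests on the smallest margin.

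**Figure D1:**
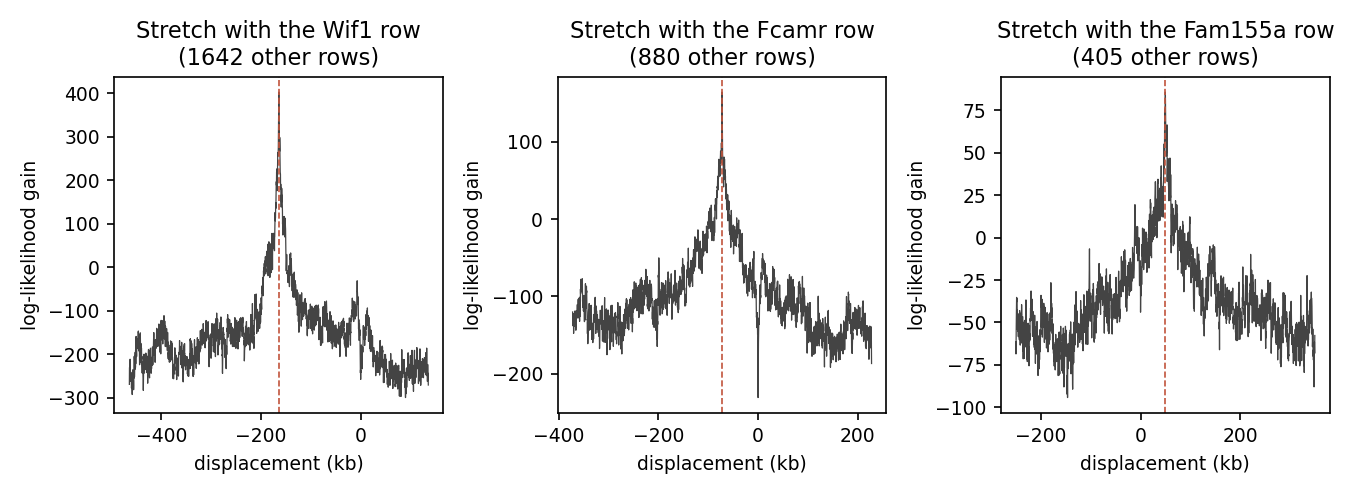
Log-likelihood gain (vertical axis) over displacements within 300 kb of the fitted one (horizontal axis, kb) for the rows of each stretch without the member row. The dashed line is the fitted displacement; each curve peaks there, at 403.2, 164.4 and 85.7.

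Each member row counted only part of its gene, and sequence outside it as well. Wif1 (ENSMUSG00000020218) spans 121033960 to 121100650 of chromosome 10 (GRCm38, plus strand). Its row covered the whole last exon, exon 10, which is 893 bp of the 2427 bp of exons of the gene, from the opposite strand. These were 13.3% of the 6733 bp of the row. The same exon of the row ran on for 2724 bp past the annotated end of Wif1, and 113 bp of the row lay on the lincRNA Gm48410. Reads in the last exon of Wif1 cannot be told apart from reads past its end. Rows were placed without regard to strand, and whether strand was used in the counting is not known here. The names Wif1 and Fcamr assume that it was not.

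Fcamr (ENSMUSG00000026415) spans 130800902 to 130814740 of chromosome 1 (plus strand). Of the 1386 bp of its row, 157 bp (11.3%) lay on Fcamr exons, all coding, and 311 bp on those of Gm15848, an antisense RNA that lies from 130809977 to 130824084 on the minus strand. At the best displacement in steps of 10 bp the overlap was 240 bp with Fcamr and 252 bp with Gm15848. Most of the row lay on neither. The row lay on the opposite strand to Fcamr and on the same strand as Gm15848. The name Fcamr stands for the whole row below, since reads of the pair cannot be told apart without strand. Fam155a (ENSMUSG00000079157) spans 9205902 to 9771161 of chromosome 8 (minus strand). Its row covered 418 bp of the 3′ untranslated region in the last exon, on the same strand, and 415 bp past the 3′ end of the gene. These 418 bp were the same at displacements 250 bp smaller and larger.

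The coding sequence that rows covered is shown for Wif1 and Fcamr. The name Wif1 rests on all 893 bp of exon 10, of which the coding end is 122 bp. The Wif1 sequences, in the annotation of GENCODE vM21, are the coding end of exon 10, chr10:121099758-121099879, and the whole of exon 2, chr10:121034966-121035105, both on the plus strand. Exon 2 was covered by a second row, which was deposited as 4930432O09Rik. For Fcamr it is the longest covered run, in exon 4, chr1:130811584-130811709, plus strand, at the fitted displacement. Capitals mark the stop codon.
Wif1 exon 10, coding end: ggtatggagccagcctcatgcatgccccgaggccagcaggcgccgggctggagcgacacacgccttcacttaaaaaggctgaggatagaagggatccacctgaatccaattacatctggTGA
Wif1 exon 2: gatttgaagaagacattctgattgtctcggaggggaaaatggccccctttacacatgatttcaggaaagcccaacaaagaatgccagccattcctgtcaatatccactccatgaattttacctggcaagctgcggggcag
Fcamr exon 4, covered run: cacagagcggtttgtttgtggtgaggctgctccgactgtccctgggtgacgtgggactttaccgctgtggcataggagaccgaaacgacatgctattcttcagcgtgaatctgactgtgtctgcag

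The libraries held 5532155 to 8205620 counts each. Vec 1 and Vec 5 stood apart on the first dimension of a multidimensional scaling, at 1.45 and 1.63, with the other 7 between -1.3 and 0.505. The slope of log2 CPM on the GC content of the placed genes was lowest in Vec 3 (-0.446 per 10% GC) and HVEM-KO 4 (-0.308), and from -0.2 to 0.0596 in the others. The T lineage was present: of 18 markers 7 had a placed row, among them Lck and Thy1, and they summed to between 2934 and 5791 CPM in Vec tumours, against 2483 to 3698 CPM in HVEM-KO tumours. In bulk tumours, fewer cells of a type and less RNA per cell cannot be told apart.

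The row on Wif1 held 3617 reads in the 5 Vec tumours together and 382 in the 4 HVEM-KO tumours. In CPM scaled by trimmed means (TMM), it was at 93.0, 50.5, 162, 78.7 and 140.2 CPM in Vec 1 to 5. In HVEM-KO 1 to 4 it was at 7.72, 32.1, 16.3 and 7.47 CPM. Every Vec tumour was above every HVEM-KO tumour, and the lowest Vec tumour, Vec 2, was 1.57-fold above the highest HVEM-KO tumour, HVEM-KO 2. The group means were 104.9 ± 45.5 CPM (SD, n = 5) and 15.9 ± 11.5 CPM (SD, n = 4), a log2 fold change of -2.72 ± 0.47 (SE), or 6.60-fold lower in HVEM-KO tumours. Without HVEM-KO 2 the log2 fold change was -3.32. The spread within groups was wide, with a 3.21-fold range among Vec and a 4.30-fold range among HVEM-KO tumours.

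The row on Fcamr was the lowest of the 3 in counts. It held 78, 38, 106, 49 and 43 reads in Vec 1 to 5 and 13, 11, 10 and 21 reads in HVEM-KO 1 to 4. These were 9.78, 6.60, 13.9, 7.34 and 7.36 CPM against 2.14, 1.85, 1.65 and 3.49 CPM. The groups did not overlap, and Vec 3 and HVEM-KO 4 were the highest of their groups. The means were 8.98 ± 2.97 CPM (SD, n = 5) and 2.28 ± 0.830 CPM (SD, n = 4), a log2 fold change of -1.98 ± 0.34 (SE). Vec 3 and HVEM-KO 4 were also the libraries with the lowest GC slopes, and with that slope as a covariate the log2 fold change was -1.74.

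The row on Fam155a varied least within groups. It was at 67.6, 56.9, 71.6, 52.7 and 69.7 CPM in Vec 1 to 5, and at 31.5, 39.8, 35.4 and 37.5 CPM in HVEM-KO 1 to 4. The groups did not overlap here either. The means were 63.7 ± 8.35 CPM (SD, n = 5) and 36.1 ± 3.52 CPM (SD, n = 4), a log2 fold change of -0.82 ± 0.15 (SE), or 1.77-fold lower in HVEM-KO tumours. The SD was 13.1% of the mean in Vec and 9.75% in HVEM-KO tumours, against 43.4% and 72.7% for the row on Wif1. The difference was thus the smallest of the 3 and the spread the smallest too.

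**Figure D2:**
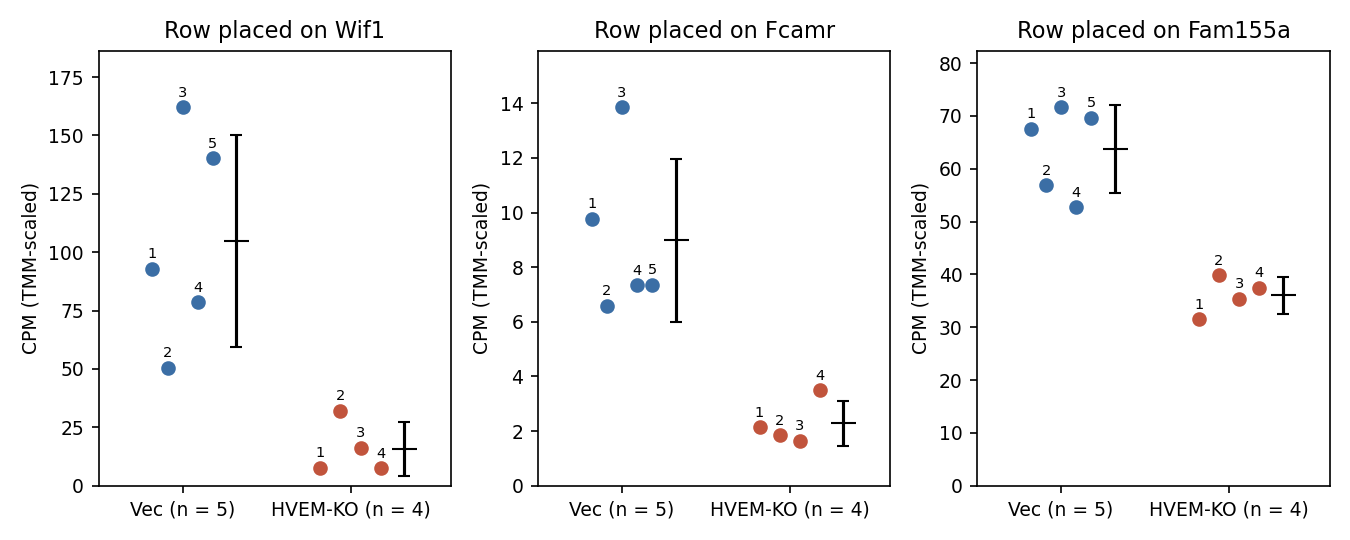
CPM of the member rows in each tumour (points, numbered by replicate; vertical axes linear and from 0), with the mean and SD of each group beside them. In each panel all 5 Vec tumours lie above all 4 HVEM-KO tumours, by least for Fam155a (1.33-fold between the nearest tumours).

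These 3 rows were chosen on the comparison of Vec with HVEM-KO tumours, so the differences are a description and carry no test. Of 11521 rows, 203 (1.76%) had lower values in every HVEM-KO than in every Vec tumour, and 134 (1.16%) had higher ones. Over all rows 0 (0%) passed edgeR's quasi-likelihood test at a false discovery rate of 0.05, with 1226 rows (10.6%) at an unadjusted p under 0.05. DESeq2 called 81 of 11517 rows (0.703%) and limma voom 0. The next placed row in the order that chose the members was on Rnf19a, an E3 ubiquitin ligase, at a log2 fold change of -0.72 ± 0.14 (SE), just outside the choice, and Fam155a was just inside it.

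Wif1 was also read in a second place. The row over exon 2 was looked at after its values were seen. It covered 140 bp of Wif1, also from the opposite strand, and 1846 bp outside its exons. It held 116, 54, 263, 86 and 125 reads in Vec 1 to 5 and 0, 26, 15 and 4 reads in HVEM-KO 1 to 4. The 0 reads of HVEM-KO 1 allow up to 3 reads, or 0.535 CPM by library size without TMM scaling, which covers counting error only. Its log2 fold change was -3.30 ± 0.68 (SE), a description like that of the first row. Per 100 reads of the row over the last exon it had 15.3 to 21.2 reads in Vec tumours and 0 to 15.2 in HVEM-KO tumours. This row did not meet the rule for a placed row, because a displacement 250 bp larger moved it off exon 2.

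The p-values that chose the members depend on the spread within groups, but not on whether rows move together. As deviations of log2 CPM from the group means, both Wif1 rows moved together over the 9 tumours (Pearson r = 0.841, Spearman rho = 0.9). Without the tumours farthest from the median of the first row, Vec 2 and HVEM-KO 2, r was 0.789. Vec 3 was highest and Vec 2 lowest of the Vec tumours in both rows, and HVEM-KO 2 was highest of the HVEM-KO tumours in both. The second row was chosen after its values were seen, so these correlations are a description with no p. The 0 reads of HVEM-KO 1 enter through the prior count of 1. With a prior count of 0.25 r was 0.754, and without HVEM-KO 1 it was 0.974, both chosen after seeing the data.

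**Figure D3:**
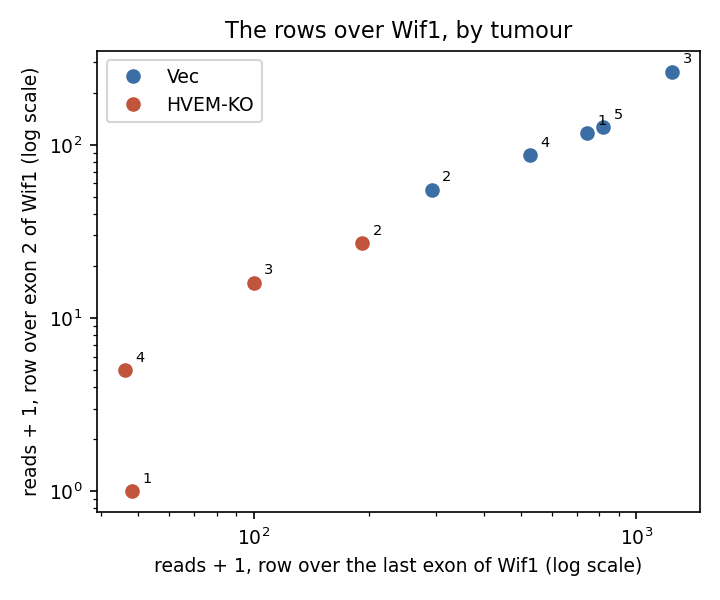
Reads + 1 of the row over the last exon of Wif1 (horizontal axis) and of the row over exon 2 (vertical axis), both on log scales, 1 point per tumour. From HVEM-KO 4, with 45 and 4 reads, to Vec 3, with 1240 and 263, the rows rise together; HVEM-KO 1 has 0 reads over exon 2.

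No such second reading was at hand for the other members. A row deposited as Fcmr had 6 of its 7 exons within the body of Fcamr at the fitted displacement, and covered no Fcamr exon. It held 7, 2, 8, 3 and 6 reads in Vec 1 to 5 and 1, 0, 0 and 0 reads in HVEM-KO 1 to 4, too few for a fold. This row too was named after its values were seen. The row deposited as Fam155a kept 7 of its 8 exons within the body of its own gene at the fitted displacement, covered none of its exons, and had a log2 fold change of -0.59 ± 0.44 (SE; edgeR, adjusted p = 0.615).

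The members were then compared with each other within the groups. Pearson r of the deviations was 0.691 between Wif1 and Fam155a (exact permutation within groups, two-sided p = 0.051, adjusted p = 0.153 over the 3 pairs). Spearman rho was 0.75 (exact p = 0.0333, adjusted p = 0.0999), and r was 0.596 without Vec 2 and HVEM-KO 2, the farthest from the median of Wif1. With library size alone in place of TMM, r fell to 0.289 (exact p = 0.461) for this pair and was 0.655 (exact p = 0.0799) for Fcamr and Fam155a, so the order of the pairs turned. For Fcamr and Fam155a, r was 0.458 (exact p = 0.248, adjusted p = 0.372) and rho 0.533 (exact p = 0.19, adjusted p = 0.285). Without Vec 3 and HVEM-KO 4 that r was 0.199. For Wif1 and Fcamr, r was -0.0391 (exact p = 0.923, adjusted p = 0.923) and rho 0.233 (exact p = 0.566, adjusted p = 0.566), with r = -0.0896 without Vec 2 and HVEM-KO 2. This value pools opposite signs, with r = 0.69 within the 5 Vec and r = -0.67 within the 4 HVEM-KO tumours, too few in each for a test. No pair passed the threshold of 0.05 after adjustment, and with 9 tumours this does not show that the members vary apart.

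Single tumours show where the members parted. In Vec 3 all 3 members were above the Vec mean, by 0.745, 0.669 and 0.178 on the log2 scale for Wif1, Fcamr and Fam155a. In Vec 2 all were below it, at -0.933, -0.383 and -0.151. In HVEM-KO 2, the deviation of Wif1 was 1.27 and that of Fam155a 0.147, while Fcamr was at -0.226. In HVEM-KO 4 the order turned, with Fcamr at 0.637, Fam155a at 0.0622 and Wif1 at -0.809.

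**Figure D4:**
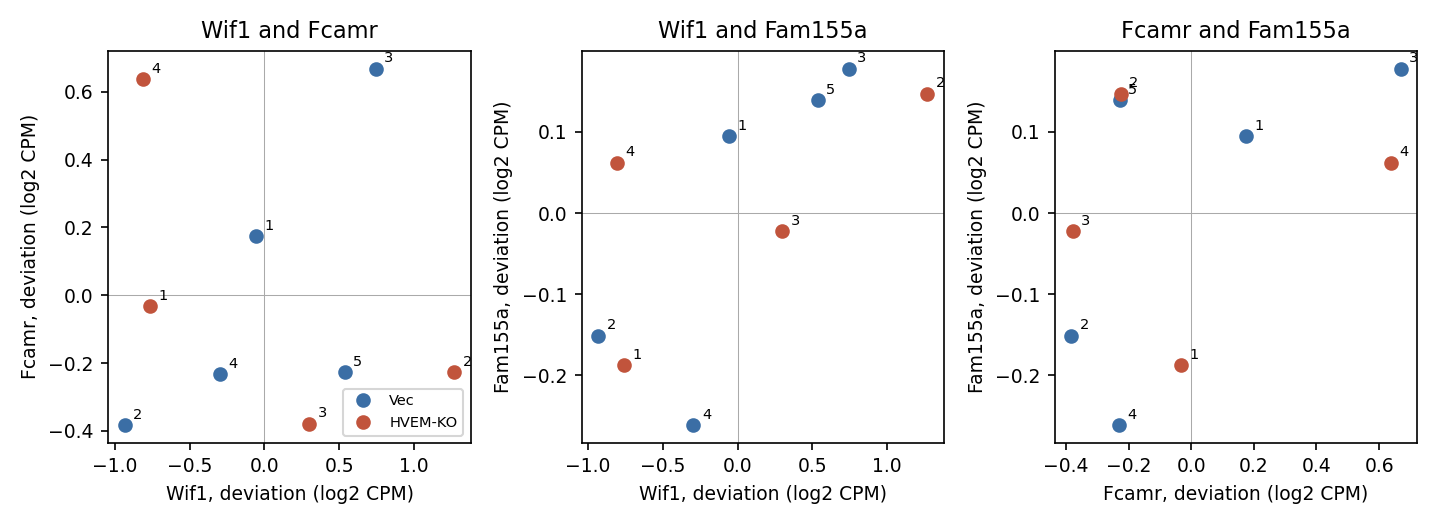
Deviations of log2 CPM from the group mean, for each pair of members, 1 point per tumour, numbered by replicate. For Wif1 and Fam155a r was 0.691, short of the threshold after adjustment; HVEM-KO 4 and HVEM-KO 2 lie at opposite corners for Wif1 and Fcamr (r = -0.0391).

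Markers of the other cells of a tumour were read beside the members. Fibroblast and matrix markers, 9 of 14 with a placed row and Col1a2 the most abundant, ranged in sum from 3546 to 14220 CPM in the Vec and from 5000 to 17500 CPM in the HVEM-KO libraries. Within Vec tumours they were highest in Vec 2, which was lowest for Wif1, and lowest in Vec 1 and Vec 5. Within HVEM-KO tumours they were highest in HVEM-KO 3 and HVEM-KO 2, the tumours highest for Wif1. Without Vec 1 and Vec 5 the log2 fold changes of Wif1, Fcamr and Fam155a were -2.62, -2.03 and -0.75. The T lineage sum was highest in Vec 5 (5791 CPM) and lowest in HVEM-KO 1 (2483 CPM) and HVEM-KO 4 (2539 CPM), which were also the lowest for Wif1. The part of either cell type in the differences was not tested.

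For Fcamr the B cell and macrophage markers bear on the cells that are known to carry the receptor. Of 11 B cell markers 3 had a placed row, which summed to 7.77 to 18.3 CPM (Vec) and 8.22 to 18.4 CPM (HVEM-KO). Ms4a1, which encodes CD20, had 20 reads in all and Blk had 13, and most of the sum was Pax5, at a mean of 12.5 and 11.8 CPM. Of 13 macrophage and monocyte markers 4 had a placed row, which summed to 82.5 to 207 CPM (Vec) and 102.3 to 264 CPM (HVEM-KO). Most of this sum was Ly6c2, whose mean hardly differed (139.1 Vec, 135.5 HVEM-KO). Mrc1 (mean 11.16 against 20.34), Mertk (3.077 against 4.85) and Cd163 (2.39 against 4.045) averaged higher in the knockout, opposite to Fcamr. For each of them the lowest knockout tumour was still below the Vec mean, at 6.307, 2.49 and 0.6639 CPM. The ranges of both sums overlapped between the groups, and their part in the Fcamr difference was not tested. Itgax, the 1 dendritic cell marker of 7 with a placed row, ranged from 10.95 to 32.6 CPM (Vec) and from 24.7 to 54.9 CPM (HVEM-KO). Csf3r, 1 of 7 for neutrophils, was at 13.2 to 57.97 and 42.0 to 73.7 CPM. The endothelial (3 of 7), adipocyte and muscle (2 of 8) and cytotoxic lymphocyte (2 of 11) sums overlapped between groups as well. No nerve and glia marker, which would bear on Fam155a, had a placed row.

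The other genes of the pathways were mostly out of reach of this table. Over 9 lists, 22 of 145 gene names other than those of the members had a tested row. Nlf1, a name used for Fam155a, is among the 145 and had none. Of the 22 tested, 16 were higher and 6 lower in HVEM-KO tumours, where 5989 of all 11521 rows were higher and 5532 lower. Their median log2 fold change was 0.37, against 0.01 over all rows. Without Vec 1 and Vec 5, 15 were higher and 7 lower, with a median of 0.13. By edgeR's quasi-likelihood test 0 of the 22 passed, and 3 were at an unadjusted p under 0.05, where 10.6% of all rows were. DESeq2 and limma voom called 0 of them too.

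Among Wnt ligands and their secretion genes, 2 of 25 were tested. Here and below, levels are group means ± SD in CPM, first of the 5 Vec and then of the 4 HVEM-KO tumours. For Wnt2b these were 1.79 ± 0.348 and 1.53 ± 0.405, and for Wnt4 1.41 ± 0.925 and 2.08 ± 0.793. Rspo1, which encodes an R-spondin that strengthens Wnt signals, had a row with 14 reads in Vec and 9 in HVEM-KO tumours and was not tested. Among Wnt receptors, 4 of 20 were tested and 3 had positive log2 fold changes, with a median of 0.66, and of 0.385 without Vec 1 and Vec 5. Fzd4, a Frizzled receptor, averaged 1.80 ± 1.61 and 4.84 ± 2.26 CPM (log2 fold change 1.44 ± 0.58, edgeR, adjusted p = 0.427). Fzd8, another, had a log2 fold change of 0.90 ± 0.54. Ryk, another Wnt co-receptor, had the most counts of the receptors tested, at 38.8 ± 8.21 and 33.9 ± 5.44 CPM (log2 fold change -0.20 ± 0.19). Without Vec 1 and Vec 5 the log2 fold change of Fzd4 was 0.90 and that of Fzd8 0.51.

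Of the 15 other secreted Wnt inhibitors, Dkk3 alone had a tested row. It is a member of the Dickkopf family, and averaged 7.998 ± 4.92 and 12.6 ± 8.50 CPM, with a log2 fold change of 0.66 ± 0.54 (edgeR, adjusted p = 0.647) and of 0.15 without Vec 1 and Vec 5. Frzb had a placed row with 0 reads in all 9 tumours, and Notum, a lipase that inactivates Wnt, one with 5 reads in Vec and 10 in HVEM-KO tumours.

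Within the cell, 10 of 25 genes of the pathway were tested, with 8 at positive and 2 at negative log2 fold changes and a median of 0.295. Those of Bcl9 and Bcl9l, -0.01 and 0.01, changed sign with other scalings, Bcl9 with library size alone and Bcl9l with DESeq2 size factors. Tle1, a co-repressor that binds TCF factors, averaged 5.79 ± 1.28 and 3.07 ± 1.74 CPM (log2 fold change -0.92 ± 0.38, edgeR, adjusted p = 0.433). Tcf7l2, a TCF factor, had a log2 fold change of 0.79 ± 0.43 at a mean of 1.35 and 2.32 CPM. Pygo1, a nuclear co-factor of beta-catenin, had a log2 fold change of 0.48 ± 0.56. Dvl3, a Dishevelled adaptor between Frizzled and beta-catenin, was at 99.4 ± 18.2 and 137.7 ± 40.0 CPM (log2 fold change 0.47 ± 0.21, adjusted p = 0.460 in edgeR). Of 17 target genes of the pathway 1 was tested, Cd44, an adhesion receptor, at 1.97 ± 1.05 and 1.12 ± 1.04 CPM (log2 fold change -0.79 ± 0.69).

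Of the 19 other Fc receptor and IgM genes, Fcrl5, an Fc receptor-like protein, had the 1 tested row, at 43.0 ± 30.5 and 60.9 ± 29.6 CPM (log2 fold change 0.51 ± 0.49, edgeR, adjusted p = 0.703, and 0.03 without Vec 1 and Vec 5). Among 13 genes near Fcamr on chromosome 1, Mapkapk2, a stress kinase, was tested, at 179.8 ± 30.9 and 186.1 ± 15.8 CPM. In the list of the NALCN channel complex 0 of 5 other names had a tested row, and Nlf1 among them is a name used for Fam155a itself. Nalcn itself, the pore, had a placed row with 1 read in all 9 tumours, and Unc79, a large subunit of the channel, one with 20 reads in Vec and 8 in HVEM-KO tumours. Of 18 sodium and calcium channels 2 were tested, Cacna1c at a log2 fold change of -0.09 ± 0.26 and Cacna1g at 0.77 ± 0.41.

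**Figure D5:**
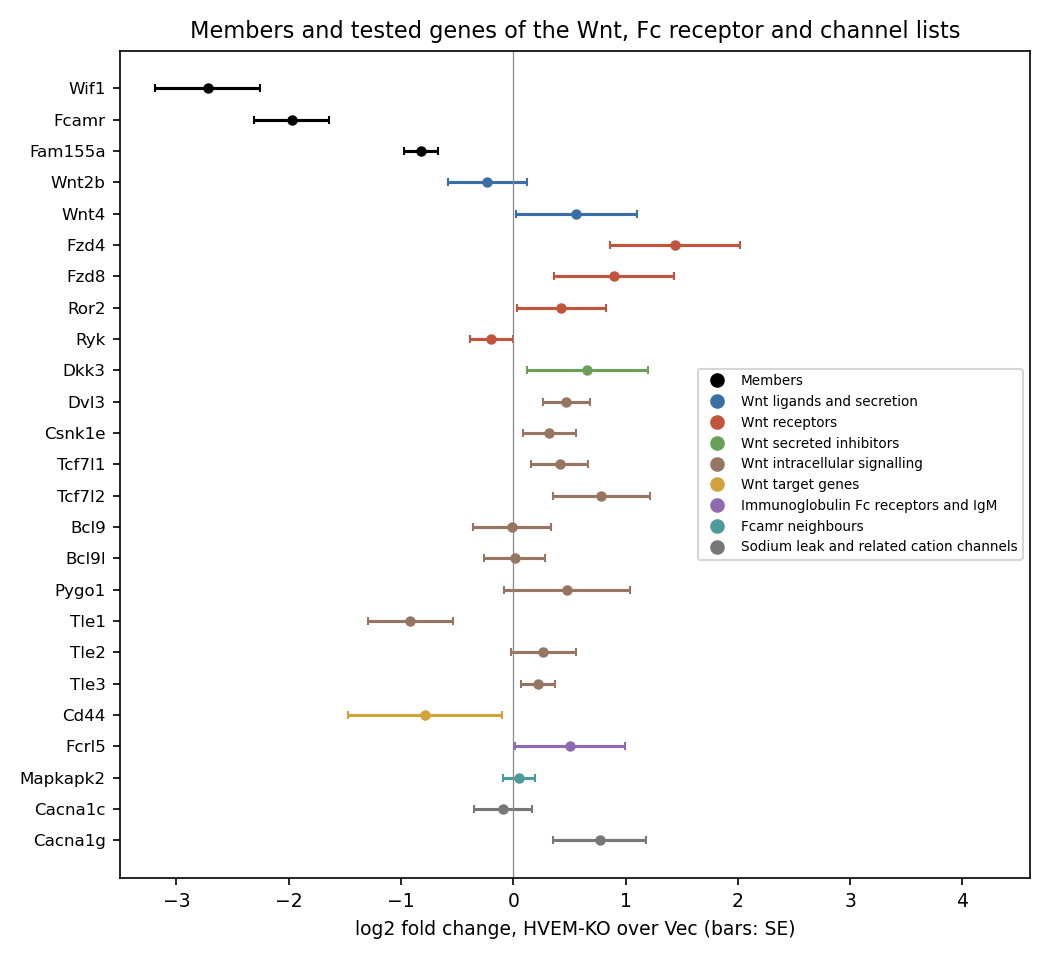
Log2 fold change of HVEM-KO over Vec (horizontal axis; bars are SE) for the members, in black, and the 22 tested genes of the pathway lists, coloured by list. The members lie at -2.72, -1.98 and -0.82; the listed genes run from -0.92 for Tle1 to 1.44 for Fzd4.

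Rows next to the members along the chromosome were read to see whether whole neighbourhoods differed. Over all 11521 rows 5532 were lower and 5989 higher. Of the 5 tested rows on each side of the row on Wif1, over 2630 kb, 7 were lower and 3 higher, from -3.30 for the second Wif1 row to 0.97. In 2 of these 10 the groups did not overlap, where 1.76% of all rows were lower and 1.16% higher without overlap. They were the second Wif1 row and a row on Ppm1h, a phosphatase, at -1.06 ± 0.42. Around Fcamr, 6 of 10 rows were higher and 4 lower, from -0.35 to 0.58, and around Fam155a 5 of 10 were higher, from -0.59 to 0.83. The groups overlapped in all 20 rows around these members, and by edgeR's test 0 of the 30 neighbours passed, as did 0 of all 11521 rows.

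The placed rows whose deviations within groups were most like those of each member, out of 4311 compared over 9 tumours, are given as a description. For Wif1 they were on Ankrd10, Cit, Jmy and Slc5a9, with r from 0.939 to 0.958. Slc5a9, a sugar transporter, also averaged 15.6 and 3.12 CPM, a log2 fold change of -2.32 ± 0.62 (edgeR, adjusted p = 0.310). For Fcamr they were on Hdac1, Iws1, Prpf4b and Dcaf7, with r from 0.956 to 0.986, and for Fam155a they included Topbp1, Sap30bp and Yipf5, with r from 0.939 to 0.941. The rows most like Fcamr had log2 fold changes between -0.26 and -0.03, much smaller than that of Fcamr. Picking the highest r among so many rows over 9 tumours gives high values by itself, so no shared regulation is read from them. The tumours share library, depth and GC slope in these correlations.

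Promoter sequences show how unlike the genes are at their starts. RefSeq promoters, 250 bases before to 50 after the start in GRCm38.p6, were found for Wif1, chr10:121033754-121034053, and Fcamr, chr1:130800652-130800951, both on the plus strand. Capitals mark CpG dinucleotides.
Wif1 promoter: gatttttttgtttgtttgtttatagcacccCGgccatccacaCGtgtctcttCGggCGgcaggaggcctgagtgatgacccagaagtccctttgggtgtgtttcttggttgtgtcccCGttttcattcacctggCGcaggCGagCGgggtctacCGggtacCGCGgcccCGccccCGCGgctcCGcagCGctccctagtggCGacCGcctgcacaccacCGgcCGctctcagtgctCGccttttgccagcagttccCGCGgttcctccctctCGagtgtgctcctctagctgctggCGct
Fcamr promoter: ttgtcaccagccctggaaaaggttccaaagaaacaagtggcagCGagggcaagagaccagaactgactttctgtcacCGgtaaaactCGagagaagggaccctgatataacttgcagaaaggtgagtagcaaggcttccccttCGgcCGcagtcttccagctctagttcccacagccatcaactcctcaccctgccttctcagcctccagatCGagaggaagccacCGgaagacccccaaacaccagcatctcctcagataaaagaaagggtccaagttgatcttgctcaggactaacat
The Wif1 promoter held 25 CpG dinucleotides, as many as or more than which were found in 18.4% of 32851 promoters. The Fcamr promoter held 7, the median of all promoters. On both strands, the TCF/LEF motif ATCAAAG (in 3.73% of promoters) and the RUNX motif TGTGGT (16.8%) were in neither. The E-box CACGTG (7.15%) was found once in the Wif1 promoter, and the GATA motif AGATAA (11.2%) once in that of Fcamr. Neither promoter held matches of more than 1 motif, and a match is a description of letters only.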

How the data were processed

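RNA of 9 EL4 tumours was sequenced after TRIzol extraction and library preparation with a SMARTER mRNA kit, per the labels' protocols. The authors deposited raw counts per gene row, for build mm10 per the submitters' processing notes. Which aligner, counter and annotation they used is not given in the sources used here. Tumours were numbered within each group in accession order. PCR copies are not independent molecules, so floors cover counting error only. The closest libraries, Vec 1 and Vec 5, differed by a chi-square of 12.0 per degree of freedom, so none was counted as a duplicate.

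Of 56923 rows, 52073 had an identifier in GENCODE vM21 (GRCm38), only 35 with the same version. A hidden Markov model over 50488 rows moved the exons of each row along its chromosome in steps of 250 bp, up to 2 Mb, with a switch penalty of 20. It scored the overlap with protein-coding exons of either strand against the row total, in 97 stretches. The gain over a model by exon length was 10207 as fitted and -12499 without displacement. A row was placed at a posterior of at least 0.99, with 100 bp and 90% of its coding overlap on 1 gene, also 250 bp either way. This placed 6979 rows on 5353 genes. On simulated counts for 2 chromosomes, 99.6% of 5749 rows were found within 1000 bp of their simulated displacement. The chromosome of Fam155a was not among them. These counts were drawn from the fitted model itself, with displacements on its grid and over a narrower range than the fit allows. The simulation therefore checks the search and not the model, and it does not bear on placement to within 250 bp.

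Counts were tested with edgeR 4.0.16 (R 4.3.3), after TMM scaling and filterByExpr, by the robust quasi-likelihood test, adjusted by Benjamini and Hochberg. The SE is the log2 fold change over the root of F. On simulated data 54% of 100 rows changed 2-fold in either direction were called and 91% of 100 changed 4-fold. The changed rows were drawn only above a minimum mean CPM, which listed genes such as Wnt2b, Wnt4 and Cd44 did not reach. Each row was drawn on its own, without variation shared between rows. These rates therefore do not hold for genes of low counts. Log2 CPM for correlations used a prior count of 1. DESeq2 1.42.0 and limma 3.58.1 were alternatives. No library was left out of the main comparison.

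The members, lists and tests were chosen with earlier results of these data known. Named genes are the members, all tested genes of the inhibitor, Fc receptor and NALCN lists, the 2 largest changes each way of the other lists, the 4 most alike placed rows (mean log2 CPM at least 1), and 5 neighbours on each side. Dvl3, Bcl9l and the untested genes of the lists were named after their values were seen. Where a gene had several tested rows, the one with most reads was used, and 1 item that the rule names is not reported here.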

Additional observations from a re-analysis of the deposited data

Results flagged for a closer look

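Of 54 sets of values, each from 1 group, 3 had a library far from the rest. Chance alone would give about 1 in 20, or 2.7. Wnt2b in HVEM-KO tumours was at 2.14 CPM in HVEM-KO 3 and 1.31 to 1.34 CPM in the others, a gap of 0.955 of the range on the log2 scale. Dvl3 in Vec tumours was at 67.7 CPM in Vec 3 and 103 to 114 CPM in the others (gap of 0.816). The GC slope was -0.308 per 10% GC in HVEM-KO 4, against 0.0323 to 0.0596 in HVEM-KO 1 to 3 (gap of 0.926). HVEM-KO 4 also had the highest Fcamr level of its group. No such library was found for Wif1, Fcamr or Fam155a.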

How the results depend on the processing

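The log2 fold changes of Wif1, Fcamr and Fam155a moved by less than the SD between replicates in 18, 17 and 17 alternatives. They ran from -3.32 to -2.47, -2.26 to -1.74 and -0.883 to -0.749, the Wif1 range including the second row (-3.30), an alternative chosen after seeing the data. Leaving out 1 library gave -3.32 to -2.47, -2.26 to -1.77 and -0.883 to -0.749. No other row was placed on the 3 genes, so sums over placed rows were not run. The number of rows called was 307 without a low-count filter, 81 with DESeq2, 1 with the GC slope as a covariate, and 0 to 1 with 1 library left out (1 without HVEM-KO 2 and 1 without HVEM-KO 4). Listed genes called were 0 in all 17 alternatives, deposited names included. The correlation of Wif1 and Fcamr changed sign without Vec 1 and Vec 5 (0.0239) and in 4 of the 9 fits without 1 library, and ran from -0.405 to 0.336 with 1 library left out (exact p from 0.393 to 0.968 over all alternatives). That of Wif1 and Fam155a ran from 0.614 to 0.849 with 1 library left out, under 0.05 unadjusted without Vec 4 (r = 0.777, exact p = 0.0469) and without HVEM-KO 4 (r = 0.849, exact p = 0.0222), and was lowest with library size alone (r = 0.289, exact p = 0.461). Without Vec 1 and Vec 5 it was 0.688 (exact p = 0.139). That of Fcamr and Fam155a ran from 0.265 to 0.655. No paired analysis was possible because the labels give no replicate numbers that the groups share. Depth limits Fcamr most, at 10 to 21 reads per HVEM-KO library.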
